A study of Mus musculus with 8 samples.

Results

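Macrophages and antigen-presenting cells are the immune cells that clear debris in skeletal muscle and show peptides to T cells, and 34 genes by which these cells are commonly recognized were followed here in muscle lacking *Grsf1*. The genes were taken as a list of names, and every non-control probe whose listed accession is a RefSeq transcript of one of them was used. They stand for 34 of the 22911 genes that could be named on the array, and for 50 of its 56605 probes. By role they fall into lineage receptors (4 genes), surface and endocytic markers of macrophages and myeloid cells (10), MHC class II antigen presentation (5), Fc receptors and their signaling partners (6), the chains of complement C1q (3), lysozymes and the oxidative burst (3), and genes of lipid-associated or repair macrophages (3).

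RNA came from a quadriceps muscle of 3 male Grsf1cKO mice and 3 male WT control mice, all 17 months old, and was hybridized with Cy3 label to Agilent 1-color arrays. In Grsf1cKO mice exons IV and V of *Grsf1* are flanked by LoxP sites and removed by Myf5Cre, a recombinase driven by the *Myf5* gene of muscle precursors, so the deletion was aimed at muscle and not at immune cells. The allele derives from Grsf1tm1a and, after a cross to FLPo mice, no longer holds the LacZ and Neo cassettes. The labels name the muscle as vastus intermedius and the paper as rectus femoris (RF). Whether the WT mice carried a floxed allele or Cre is not given in the sources used here. Grsf1cKO 1 and WT 1 were each measured on a first and a repeat array, which were averaged, and Grsf1cKO 3 was measured on 1 array. All Grsf1cKO arrays lay on slide 2, with WT 3 and the repeat of WT 1. WT 2 and the first array of WT 1 lay on slide 1, so slide and genotype are partly confounded. The genotypes are compared to ask whether macrophage and antigen-presentation transcripts differ in aged muscle without GRSF1, a question tied to the study's interest in inflammation. By histology the paper saw no obvious infiltration of inflammatory cells in either genotype. Whether its sections came from the mice measured here is not given.

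Resident macrophages of muscle depend on the receptor for colony-stimulating factor 1 and carry scavenger and mannose receptors, whereas monocytes that arrive from blood after fiber damage express more of the phagocytic, lipid-handling and antigen-presenting genes. MHC class II molecules are made of an alpha and a beta chain, are assembled on the invariant chain CD74 and are loaded after proteases such as cathepsin S have cut it away. C1q starts the classical complement pathway and in most tissues is made by macrophages. In RNA from whole muscle, fewer cells of a type and less RNA per cell cannot be told apart.

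*Grsf1* was checked first. Here and throughout, signals are listed for mice 1, 2 and 3 of a genotype in that order. Its log2 signals were 12.15, 12.02 and 12.08 across the Grsf1cKO mice and 14.30, 14.25 and 14.27 across the WT mice. Every mouse thus followed its label, with a log2 difference of -2.19 (standard error 0.0811, limma adjusted *p* = 0.00328), and Grsf1cKO 3 was like the other Grsf1cKO mice. Spots well above background, by the flag of the scanner software, made up 66.2% to 73.1% of an array and 88.8% of the repeat array of Grsf1cKO 1. Over the members, the arrays of WT 1 differed by a median of 0.038 on the log2 scale, and those of Grsf1cKO 1 by 0.051. In 3 members (*Itgax*, *Cybb* and *Msr1*) the repeat of Grsf1cKO 1 lay over 1 log2 unit below its first array, by 1.37 at most.

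One mouse stood apart in these genes. Grsf1cKO 3 had the highest signal of the 6 mice in 33 of the 34 members, against 16.3% of all 38859 probes with a value in every mouse. For each probe the signal of Grsf1cKO 3 was set against the median of the other 5 mice. Over the members this difference had a median of 1.13 on the log2 scale, or 2.19-fold, and over all probes of -0.02. Grsf1cKO 3 lay over 1 log2 unit above the highest of the other 5 mice in 10 of 34 members, against 0.636% of all probes, and over 0.5 in 26 of 34, against 2.20%. This mouse was noticed from these values, so that they describe it and are no test. Since it was measured on a single array, the mouse and its array cannot be told apart. Genotype differences of genes or their groups are therefore also given without Grsf1cKO 3.

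**Figure D1:**
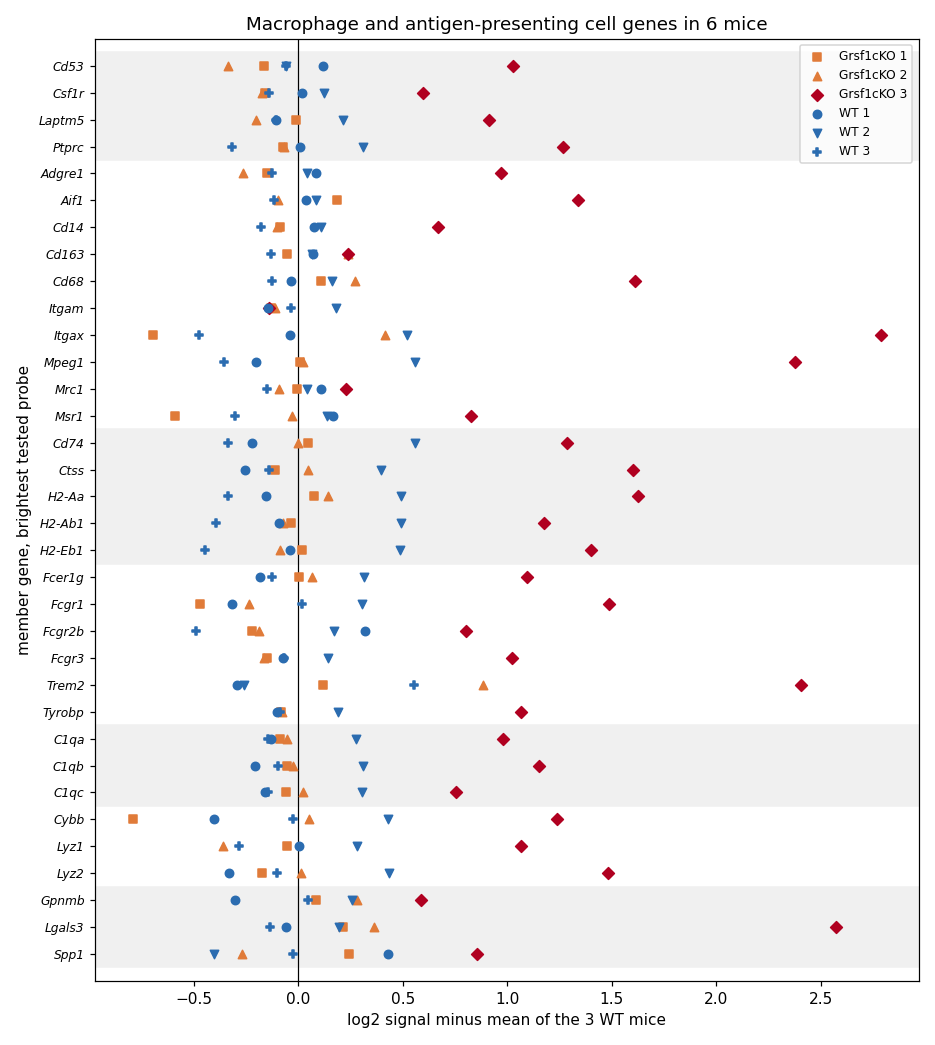
Log2 signal of the brightest tested probe of each of the 34 members in the 6 mice, minus the mean of the 3 WT mice, with shaded bands separating the groups by role in the order of the text. Grsf1cKO 3 (red diamonds) lies to the right of the other mice in 33 members, and Grsf1cKO 1 and 2 (orange) lie among the WT mice (blue) in most.

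Between the genotypes, no member passed the test. All 34 had a probe well above background in all 6 mice, and the brightest stands for the gene. Of the 50 probes 46 were tested, and the other 4 (dimmer probes of *Adgre1*, *Itgax*, *Msr1* and *Mpeg1*) were well above background in 2 mice or fewer. A call needed a change of more than 1.5-fold together with an unadjusted *p* below 0.01 and a false discovery rate (Benjamini-Hochberg) below 0.2. With these criteria limma called 0 of the 46 probes, against 0.00771% of the 38886 probes tested (3 probes). At an unadjusted limma *p* under 0.05, 0 of the 34 brightest probes were higher and 0 lower, against 1.29% of all probes higher and 2.96% lower. Of the 46 probes 1 had such a *p*, a dim probe of *Itgam* with a log2 difference of -0.48 (limma unadjusted *p* = 0.030), and of -0.30 without Grsf1cKO 3. The lowest unadjusted *p* among the brightest probes was 0.106, for *Trem2*, and the lowest adjusted *p* of any member probe was 0.996.

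The differences nevertheless leaned one way, although the members were read in the same 6 mice and are not independent of each other. Of the 34 members 33 had a positive log2 difference, Grsf1cKO minus WT, against 42.5% of all probes tested. The median was 0.29, or 1.22-fold, with a range of -0.13 (*Itgam*) to 1.14 (*Trem2*), and 6 members were over 1.5-fold higher, against 1.9% of all probes tested. Over all probes tested the median was -0.03. Among the brightest probes the genotypes failed to overlap for 1 member, *Lgals3*, which was higher in every Grsf1cKO mouse, against 3.08% of probes that lay wholly higher and 6.27% wholly lower. A count of 1 in 34 is near the share wholly higher. Without Grsf1cKO 3 the median over the members was -0.06, 10 members were positive and 24 negative, the range was -0.37 to 0.50, and no member was over 1.5-fold either way. Leaving out Grsf1cKO 1 or Grsf1cKO 2 in its place gave medians of 0.52 and 0.51. The values without Grsf1cKO 3 use the mean of both arrays of Grsf1cKO 1 and were not computed with first arrays alone. The low end, *Cybb*, had 7.38 on the first array of that mouse and 6.14 on its repeat. Over the members the repeat minus the first array had a median of -0.04.

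**Figure D2:**
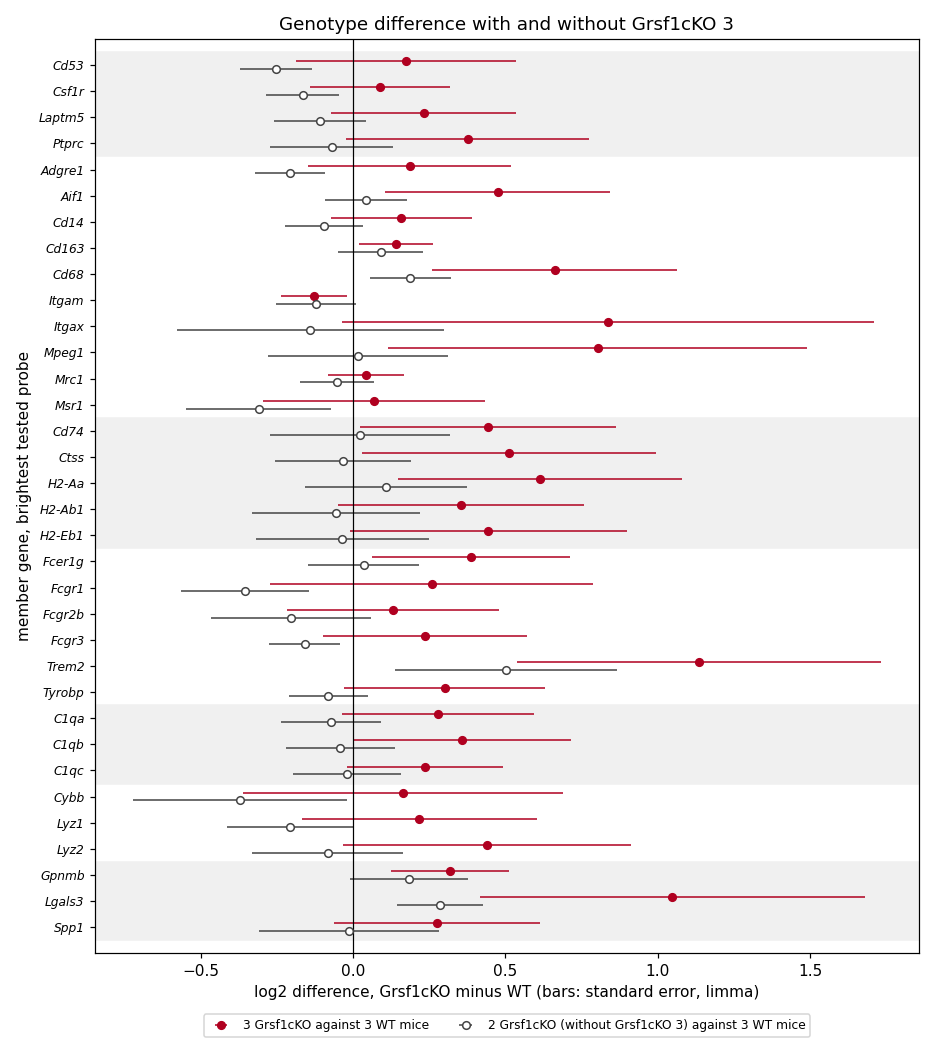
Log2 difference, Grsf1cKO minus WT, of each member with its standard error from limma, for all 6 mice (filled) and without Grsf1cKO 3 (open). The filled points lie above 0 in 33 members, with a median of 0.29, and the open points in 10, with a median of -0.06.

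The high values of Grsf1cKO 3 also set the spread within its genotype. The SD among the 3 Grsf1cKO mice had a median of 0.711 over the members, and that among the 3 WT mice of 0.272, against 0.156 and 0.164 over all probes tested, and it was larger in Grsf1cKO for 32 of 34 members. Grsf1cKO 1 lay within the range of the WT mice for 24 members, above it for 2 and below it for 8. For Grsf1cKO 2 the same counts were 23, 5 and 6. Among the 5 mice other than Grsf1cKO 3, WT 2 was highest in 22 members, and over all 6 mice WT 3 was lowest in 14. Relative to the mean of the 6 mice, the mean log2 signal over the members was -0.28, -0.19 and 1.01 for the Grsf1cKO mice and -0.25, 0.05 and -0.34 for the WT mice.

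Promoter sequence is shown for a few members that were high together in Grsf1cKO 3, and for *Mrc1*, which differed little. Background on the letters searched is as follows. PU.1, the product of *Spi1*, is a transcription factor of the myeloid lineage that binds purine-rich sites, here written AGGAAGT and in a longer form GAGGAAGT that contains it. The promoters of class II genes carry a Y box, an inverted CCAAT sequence bound by NF-Y, here written CTGATTGG. The RefSeq promoters of build GRCm38.p6, each 250 bases before to 50 after a gene's start, cover 26 of the 34 members with 29 promoters, and both strands were searched. AGGAAGT was found in 11 of the 29 (37.9%), against 9.35% of all 32851 promoters of this length, and GAGGAAGT in 4 (13.8%), against 3.20%. CTGATTGG was found in 3 (10.3%), those of *H2-Aa*, *H2-Eb1* and *Spp1*, against 4.10%. The plain TATAAA, searched for comparison, was in 4 (13.8%), against 13.6%. These matches describe letters in the sequence and do not show binding.

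The 250 bases before the start of both class II genes follow 5′ to 3′ on the gene's strand, with the Y-box letters in capitals. They lie at chr17:34287824-34288073 on the minus strand (*H2-Aa*, the alpha chain of I-A) and chr17:34305617-34305866 on the plus strand (*H2-Eb1*, the beta chain of I-E), both in GRCm38.p6.
H2-Aa: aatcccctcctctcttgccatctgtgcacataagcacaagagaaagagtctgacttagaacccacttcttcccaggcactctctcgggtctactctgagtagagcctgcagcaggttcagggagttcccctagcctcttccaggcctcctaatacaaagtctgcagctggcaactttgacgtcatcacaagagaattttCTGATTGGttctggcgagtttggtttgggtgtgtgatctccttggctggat
H2-Eb1: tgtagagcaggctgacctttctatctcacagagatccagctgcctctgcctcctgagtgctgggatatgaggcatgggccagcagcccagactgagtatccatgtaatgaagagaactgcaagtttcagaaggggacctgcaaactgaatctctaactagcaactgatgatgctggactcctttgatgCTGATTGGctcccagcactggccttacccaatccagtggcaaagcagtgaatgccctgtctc
The Y-box letters begin 51 bases before the start of *H2-Aa* and 62 bases before that of *H2-Eb1*, both on the gene's own strand.

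For the PU.1-type letters 4 promoters are shown, with the match in capitals as ACTTCCT because it lies on the opposite strand. They lie at chr10:117292869-117293118 (*Lyz1*, minus strand), chr10:117282273-117282522 (*Lyz2*, minus strand), chr3:96293970-96294219 (*Fcgr1*, minus strand) and chr2:14229164-14229413 (*Mrc1*, plus strand).
Lyz1: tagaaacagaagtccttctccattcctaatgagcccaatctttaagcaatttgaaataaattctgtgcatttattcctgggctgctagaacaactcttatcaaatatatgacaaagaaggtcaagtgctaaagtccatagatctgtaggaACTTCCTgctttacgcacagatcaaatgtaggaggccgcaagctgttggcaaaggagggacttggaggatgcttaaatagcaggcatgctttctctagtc
Lyz2: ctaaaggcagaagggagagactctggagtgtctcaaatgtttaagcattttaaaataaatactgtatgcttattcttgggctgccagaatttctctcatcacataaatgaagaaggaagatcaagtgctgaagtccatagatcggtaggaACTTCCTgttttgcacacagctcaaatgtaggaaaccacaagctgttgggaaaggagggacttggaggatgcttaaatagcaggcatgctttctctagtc
Fcgr1: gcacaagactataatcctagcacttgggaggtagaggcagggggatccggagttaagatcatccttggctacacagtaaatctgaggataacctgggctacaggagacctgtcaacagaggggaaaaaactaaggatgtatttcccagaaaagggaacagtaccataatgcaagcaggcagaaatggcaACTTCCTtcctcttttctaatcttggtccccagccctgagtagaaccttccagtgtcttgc
Mrc1: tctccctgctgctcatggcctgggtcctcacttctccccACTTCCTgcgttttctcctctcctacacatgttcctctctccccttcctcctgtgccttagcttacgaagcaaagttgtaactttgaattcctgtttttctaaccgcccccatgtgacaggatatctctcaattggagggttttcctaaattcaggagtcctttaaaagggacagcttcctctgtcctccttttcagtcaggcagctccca
The match begins 100 bases before the start in both lysozyme genes, 61 in *Fcgr1* and 211 in *Mrc1*. Set side by side without gaps, the promoters of *Lyz1* and *Lyz2* are identical at 152 of 250 bases (60.8%).

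Lineage receptors give the broadest view of the cells. *Csf1r*, the receptor for colony-stimulating factor 1 on which macrophages depend, had log2 signals of 13.44, 13.42 and 14.19 across the Grsf1cKO mice and of 13.61, 13.72 and 13.45 across the WT mice. Grsf1cKO 1 and 2 were below every WT mouse and Grsf1cKO 3 above every one. The log2 difference was 0.09 (standard error 0.229, limma unadjusted *p* = 0.712), and -0.17 without Grsf1cKO 3. The 3 other genes of this group were *Ptprc* (CD45, carried by all leukocytes), *Cd53* (a leukocyte tetraspanin) and *Laptm5* (a lysosomal membrane protein of blood cells). Their log2 differences ran from 0.17 (*Cd53*) to 0.38 (*Ptprc*), and without Grsf1cKO 3 from -0.25 (*Cd53*) to -0.07 (*Ptprc*). All 4 genes were highest in Grsf1cKO 3, by 0.74 to 1.34 over the median of the other 5 mice.

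The surface markers split into genes with a large and genes with a small excess in Grsf1cKO 3. *Cd68*, a glycoprotein of macrophage lysosomes, had log2 signals of 11.80, 11.96 and 13.30 across the Grsf1cKO mice and of 11.65, 11.85 and 11.57 across the WT mice. Its log2 difference was 0.66 (standard error 0.402, limma unadjusted *p* = 0.151), or 1.58-fold, and 0.19 without Grsf1cKO 3. The dimmer probe of *Cd68* gave 0.76, and 0.29 without Grsf1cKO 3. *Adgre1*, which encodes the adhesion receptor most used to stain mouse macrophages, had 10.50, 10.38 and 11.62 in the Grsf1cKO mice and 10.73, 10.69 and 10.52 in the WT mice. As for *Csf1r*, both of the other Grsf1cKO mice were below all WT mice, and the log2 difference was 0.19 with and -0.21 without Grsf1cKO 3.

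*Itgax*, encoding CD11c of dendritic cells and activated macrophages, varied most. It had log2 signals of 5.75, 6.86 and 9.23 across the Grsf1cKO mice and of 6.40, 6.96 and 5.97 across the WT mice. Grsf1cKO 3 was 7.11-fold over the median of the other 5 mice, while Grsf1cKO 1 was the lowest of all 6 as the mean of 2 arrays that differed, at 6.43 on the first and 5.06 on the repeat. The genotypes overlapped, with a log2 difference of 0.84 (standard error 0.874). Without Grsf1cKO 3 it was -0.14, a value that rests on this mean for Grsf1cKO 1. *Mpeg1*, encoding the pore-forming perforin-2 of phagocytes, had 10.52, 10.53 and 12.89 in the Grsf1cKO mice and 10.31, 11.07 and 10.16 in the WT mice. Its log2 difference of 0.80 (standard error 0.687) was 0.02 without Grsf1cKO 3, which was 5.17-fold over the median of the others.

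*Cd163* and *Mrc1* differed less between mice than most members. *Cd163*, the scavenger receptor for hemoglobin bound to haptoglobin, had log2 signals of 11.37, 11.65 and 11.66 across the Grsf1cKO mice and of 11.49, 11.48 and 11.29 across the WT mice. Grsf1cKO 2 and 3 were at the same level, 0.17 above the median of the others for Grsf1cKO 3. *Mrc1*, the mannose receptor CD206, had 11.82, 11.73 and 12.05 in the Grsf1cKO mice and 11.93, 11.87 and 11.68 in the WT mice. Its log2 difference was 0.04 (standard error 0.125), and that of *Cd163* 0.14 (standard error 0.121), and without Grsf1cKO 3 they were -0.05 and 0.09. The SDs of these genes among Grsf1cKO mice, 0.166 for *Mrc1* and 0.167 for *Cd163*, were close to those among WT mice, 0.135 and 0.115.

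The other 4 surface markers were *Cd14* (the co-receptor for bacterial lipopolysaccharide), *Msr1* (scavenger receptor A), *Aif1* (the actin-binding IBA1) and *Itgam* (CD11b). *Aif1* had a log2 difference of 0.47, *Cd14* of 0.16 and *Msr1* of 0.07. Without Grsf1cKO 3 these were 0.04, -0.10 and -0.31, and with the first arrays alone *Msr1* had 0.21. The brightest probe of *Itgam* was the exception among the members, with a log2 signal of 14.94 in Grsf1cKO 3 against 14.95 and 14.97 in the other Grsf1cKO mice and 14.93 to 15.26 in WT mice. Its dimmer probe was also lower in Grsf1cKO 3, by 0.79 against the median of the other mice, and all 3 Grsf1cKO mice (5.61 to 6.19) were below the WT mice (6.40 to 6.54) in that probe. Neither probe moved with the myeloid integrin gene *Itgax*. The probes of *Itgam* read at very different levels, with means of 14.95 and 5.97 in the Grsf1cKO mice. Whether both measure the same transcript was not examined. *Itgb2*, an integrin gene outside the members, was highest in Grsf1cKO 3, by 0.99 over the median of the other mice.

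None of the 5 genes of class II antigen presentation passed the test between the genotypes, and all were highest in Grsf1cKO 3. *Cd74*, the invariant chain, had log2 signals of 14.17, 14.13 and 15.41 across the Grsf1cKO mice and of 13.90, 14.69 and 13.79 across the WT mice. *H2-Aa*, whose promoter is shown above, had 9.82, 9.89 and 11.37 in the Grsf1cKO mice and 9.59, 10.24 and 9.41 in the WT mice. *H2-Ab1*, the beta chain that pairs with it, had 14.51, 14.47 and 15.72 in the Grsf1cKO mice and 14.45, 15.04 and 14.15 in the WT mice. In all 3 genes the order was the same at both ends, with Grsf1cKO 3 highest, WT 2 second and WT 3 lowest. *H2-Eb1* had 13.94, 13.84 and 15.33 in the Grsf1cKO mice and 13.89, 14.41 and 13.48 in the WT mice, with the same mice at the ends.

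The log2 differences of these genes were 0.44 for *Cd74*, 0.61 for *H2-Aa*, 0.35 for *H2-Ab1* and 0.44 for *H2-Eb1*, with standard errors of 0.403 to 0.467 and limma unadjusted *p* of 0.237 to 0.414. All 4 probes of *H2-Ab1* were highest in Grsf1cKO 3, and their differences ran from 0.35 to 0.58, and from -0.09 to 0.02 without Grsf1cKO 3. *Ctss*, the protease cathepsin S that cuts the invariant chain, had a difference of 0.51 and was 3.29-fold over the median of the other mice in Grsf1cKO 3. Without Grsf1cKO 3 the 5 genes of the group had a median of -0.03, against 0.44 with it.

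Among Fc receptors and their partners, *Trem2* had the largest difference of all members. TREM2 is a lipid-sensing receptor of macrophages that signals through the adaptor encoded by *Tyrobp*. Its log2 signals were 8.57, 9.33 and 10.86 across the Grsf1cKO mice and 8.16, 8.19 and 9.01 across the WT mice. Grsf1cKO 2 and 3 were above all WT mice, while Grsf1cKO 1 was below WT 3. The log2 difference was 1.14 (standard error 0.598, limma unadjusted *p* = 0.106, adjusted *p* = 0.996), or 2.20-fold, and the 2-sided exact permutation test over the 6 mice gave *p* = 0.2. Without Grsf1cKO 3 it was 0.50, the largest of the members there too.

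*Tyrobp* had a log2 difference of 0.30 and *Fcer1g*, the gamma chain shared by activating Fc receptors, of 0.39, which were -0.08 and 0.03 without Grsf1cKO 3. *Fcgr1*, the high-affinity IgG receptor whose promoter is shown above, had a difference of 0.26, that turned to -0.35 without Grsf1cKO 3, and Grsf1cKO 3 was 3.30-fold over the median of the other mice. *Fcgr3*, an activating low-affinity receptor, had a difference of 0.23, and *Fcgr2b*, the inhibitory one, of 0.13. Without Grsf1cKO 3 these were -0.16 and -0.21. All 6 genes of the group were highest in Grsf1cKO 3.

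The 3 chains of C1q ran in parallel. *C1qa* had log2 signals of 11.13, 11.16 and 12.19 across the Grsf1cKO mice and of 11.09, 11.49 and 11.07 across the WT mice. *C1qb* had 10.80, 10.83 and 12.01 in the Grsf1cKO mice and 10.65, 11.16 and 10.76 in the WT mice. *C1qc* had 12.96, 13.04 and 13.77 in the Grsf1cKO mice and 12.86, 13.32 and 12.87 in the WT mice. In each chain Grsf1cKO 3 was highest and WT 2 second, and the other 4 mice lay within 0.20 of each other. The differences were 0.28, 0.36 and 0.24, with limma unadjusted *p* of 0.356 to 0.412, and -0.07, -0.04 and -0.02 without Grsf1cKO 3.

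The lysozymes digest bacterial walls, and *Lyz2* is the form of macrophages and neutrophils while *Lyz1* is known from Paneth cells of the gut. *Lyz1* had log2 signals of 13.17, 12.87 and 14.29 across the Grsf1cKO mice and of 13.23, 13.51 and 12.94 across the WT mice. *Lyz2* had 9.67, 9.86 and 11.33 in the Grsf1cKO mice and 9.52, 10.28 and 9.75 in the WT mice. The genes are close copies, so that their probes may share signal, which was not examined. Grsf1cKO 3 was 2.17-fold (*Lyz1*) and 3.00-fold (*Lyz2*) over the median of the other mice, and the log2 differences were 0.22 and 0.44, and -0.21 and -0.08 without Grsf1cKO 3. *Cybb*, the membrane subunit of the phagocyte NADPH oxidase, had a difference of 0.16, of -0.37 without Grsf1cKO 3 and of 0.38 with the first arrays alone.

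*Lgals3*, encoding galectin-3, a lectin of activated macrophages in damaged muscle, was the member whose brightest probe did not overlap between the genotypes. That is 1 of 34 members, near the 3.08% of all probes that lay wholly higher. It had log2 signals of 11.97, 12.12 and 14.33 across the Grsf1cKO mice and of 11.70, 11.96 and 11.62 across the WT mice. Grsf1cKO 3 was 5.19-fold over the median of the other mice, and Grsf1cKO 1 was above the highest WT mouse by under 0.05, at 12.01 on its first array and at 11.94, below WT 2, on its repeat. The log2 difference was 1.05, or 2.07-fold (standard error 0.632, limma unadjusted *p* = 0.148), and the 2-sided exact permutation test gave *p* = 0.1, the smallest that 3 mice against 3 allow. It was 0.29 without Grsf1cKO 3, and the other probe of *Lgals3* gave 1.07, and also 0.29 without Grsf1cKO 3, with overlap, since Grsf1cKO 1 (11.17) was below WT 2 (11.18) there (exact permutation *p* = 0.2).

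The other members of that group had smaller log2 differences, and no gene of the group passed the test. *Gpnmb*, a glycoprotein of lysosomes in lipid-laden macrophages, had log2 signals of 10.32, 10.52 and 10.83 across the Grsf1cKO mice and of 9.93, 10.49 and 10.29 across the WT mice. Its difference was 0.32 (standard error 0.194) with all mice and 0.18 without Grsf1cKO 3. *Spp1*, encoding osteopontin, a secreted protein of macrophages and other cells in injured muscle, had 9.78, 9.27 and 10.39 in the Grsf1cKO mice and 9.97, 9.14 and 9.52 in the WT mice. WT 1 was above Grsf1cKO 1 and 2, and the difference of 0.28 was -0.01 without Grsf1cKO 3.

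Several probes of a gene mostly behaved alike. Of the 12 further probes tested, 10 had the sign of the brightest probe of their gene, and 10 were highest in Grsf1cKO 3. The log2 differences of such probes lay a median of 0.11 from that of the brightest, and 0.35 at most.

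The excess of Grsf1cKO 3 extended to other myeloid genes, but not to markers of every cell type. Of the 30 other myeloid genes tested, 19 were highest in Grsf1cKO 3, which lay a median of 0.64 over the other 5 mice. Over the list this difference ran from -0.59 for *Timd4* (the phosphatidylserine receptor TIM-4) to 2.30 for *Cx3cr1* (the fractalkine receptor), and the next highest was 1.64 for *Ccr2* (the receptor for CCL2). *Spi1*, which encodes PU.1, was at 1.14, but its highest signal was in Grsf1cKO 2 (6.23, against 5.87 in Grsf1cKO 3). Of the other class II pathway genes all 10 that were tested and had a value in every mouse were highest in Grsf1cKO 3, led by *Ciita*, the master regulator of class II transcription, at 1.65. All 9 genes of the class I pathway, with a median of 0.51, and all 5 other NADPH oxidase genes, with a median of 1.04, were also highest in that mouse. *Cd5l* and *H2-DMb2* were measured but not tested, and *Cd5l* was lowest in Grsf1cKO 3 and *H2-DMb2* highest in WT 2. Of 9 lysosomal proteases and membrane proteins 4 were highest in Grsf1cKO 3, with a median of 0.08 and a range of -0.10 to 0.47 (*Ctsh*).

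**Figure D3:**
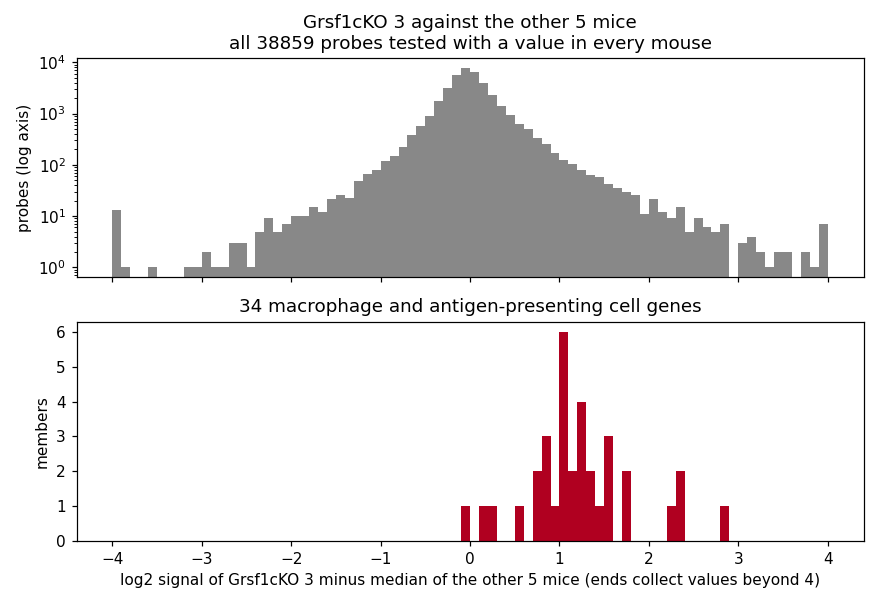
Histograms of the log2 signal of Grsf1cKO 3 minus the median of the other 5 mice, for all 38859 probes tested with a value in every mouse (top, log axis) and for the 34 members (bottom). The probes center on -0.02 and the members on 1.13, with *Itgam* at -0.03 as the lowest member and *Itgax* at 2.83 as the highest.

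Between the genotypes 2 of these other genes had an unadjusted *p* under 0.05 and did not overlap. *Timd4* had log2 signals of 6.95, 6.61 and 6.65 across the Grsf1cKO mice and of 7.45, 7.30 and 7.25 across the WT mice. *Siglec1*, the sialic acid receptor CD169, had 6.69, 6.92 and 7.03 in the Grsf1cKO mice and 6.51, 6.42 and 6.40 in the WT mice. That all 3 Grsf1cKO mice lay on one side rests on the mean of 2 arrays of Grsf1cKO 1 that differed. Its first array and its repeat gave 7.31 and 6.58 for *Timd4*, the first above WT 2 and WT 3, and 6.94 and 6.44 for *Siglec1*, the repeat within the range of the WT mice. The log2 differences were -0.60 (limma unadjusted *p* = 0.00297) and 0.44 (unadjusted *p* = 0.00892), both with an adjusted *p* of 0.996, and -0.55 and 0.36 without Grsf1cKO 3. At that *p*, 1 of the 30 tested genes of this list was higher and 1 lower, against 1.29% and 2.96% of all probes, and the same genes were those that did not overlap, against 3.08% and 6.27%. A count of 1 in 30 in each direction is near these shares. No gene of the class II pathway, class I pathway, NADPH oxidase or lysosomal lists had an unadjusted *p* under 0.05.

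Markers of other cell types were measured beside them, and their part in the results was not tested. Markers of T cells and NK cells had a median excess in Grsf1cKO 3 of 0.25 over 8 genes, with 1.56 for *Klrd1* and 1.16 for *Nkg7* of NK cells but -0.08 for *Cd3d* and 0.15 for *Cd3e*. Their score ran from -0.36 to 0.45 in Grsf1cKO mice and from -0.38 to 0.34 in WT mice. Among 5 neutrophil markers *S100a9* (2.25) and *S100a8* (1.55) were highest in Grsf1cKO 3, while *Retnlg*, *Mmp9* and *Csf3r* were at 0.02, -0.03 and -0.03. The neutrophil score of WT 2, 0.55 over the mean of the 6 mice, was the same to 2 decimals as that of Grsf1cKO 3, and the 3 WT scores ran from -0.41 to 0.55 against -0.44 to 0.55 in Grsf1cKO mice. Fibroblast markers had a median of 0.26, with *Col1a1* at 0.86 and *Col3a1* at 0.76, and *Pdgfra* and *Dcn* at -0.07 and -0.05. Their score ran from -0.05 to 0.29 in Grsf1cKO mice and from -0.21 to 0.07 in WT mice. The median was 0.20 for markers of B cells, 0.00 for endothelium, 0.01 for muscle fibers and -0.09 for both Schwann cells and satellite cells. It was -0.28 for mast cells, -0.38 for red blood cells and -0.62 for adipocytes. No list of these markers had a gene with an unadjusted *p* under 0.05 with all 6 mice. Of the 8 T cell and NK cell genes 6 had a positive log2 difference, and the lowest was -1.29 for *Cd8a*. Without Grsf1cKO 3 that of *Cd8a* was -1.90 (limma unadjusted *p* = 0.0065). That fit leaves out a mouse noticed from these data, so this *p* is descriptive, and the share of all probes below it was not counted. In the same fit a dimmer probe of *Cybb* had -0.46 (limma unadjusted *p* = 0.00437). *Timd4* had -0.55 (limma unadjusted *p* = 0.0121) and *Siglec1* 0.36 (limma unadjusted *p* = 0.0274).

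As a check of the tissue, all 10 muscle fiber markers were well above background in all 6 mice, as were 5 of 5 mast cell, 6 of 6 endothelial, 6 of 6 fibroblast and 5 of 5 adipocyte markers, 6 of 9 T cell and NK cell markers and 3 of 6 B cell markers. Of the B cell markers *Blk*, and of the satellite cell markers *Myf5*, was well above background in no mouse. The slow myosin *Myh7* fell into levels of 9.27 to 9.46 in Grsf1cKO 2, Grsf1cKO 3 and WT 1, and of 11.33 to 11.38 in the other 3 mice.

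**Figure D4:**
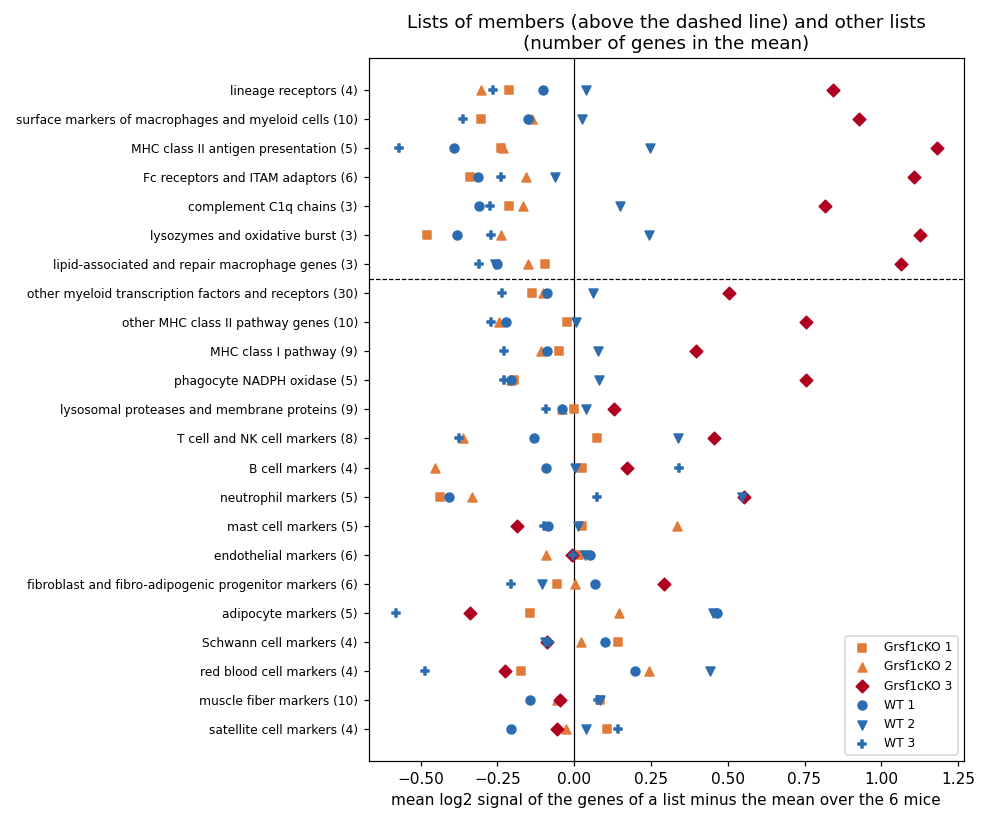
Mean log2 signal over the genes of each list minus its mean over the 6 mice, for the 7 lists of members (above the dashed line) and 16 other lists (below), with 1 symbol per mouse. Grsf1cKO 3 is between 0.82 and 1.18 in the lists of members and at -0.01 for endothelial and -0.05 for muscle fiber markers.

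The position of Grsf1cKO 3 was read under other scalings too. It was highest in 33 members with scaling to the 75th percentile, with normexp background correction, with the first arrays alone and with the repeat arrays in place, and in 32 with the deposited scores rescaled to log2. The median excess over the members was 1.10 to 1.15 under these 5 and that over all probes -0.05 to 0.00. On the slide that holds all Grsf1cKO arrays with WT 3 and the repeat of WT 1, the median log2 difference over the members was 0.42. WT 2 has no array on that slide, so the slide and the absence of WT 2 cannot be told apart. Leaving out WT 2 alone gave 0.41.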

How the data were processed

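RNA of 6 mice was measured on 8 Agilent 1-color arrays. The authors deposited Feature Extraction (version 12.0.3.1) output, with linear intensity values per spot, and scores. The deposited score is the log2 of the processed signal, standardized over the 62976 spots of an array: recomputed scores differed by at most 0.005. Intensities were background-corrected by that software, not normalized between arrays.

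Control spots were removed, spots flagged as non-uniform or population outliers were set to missing, arrays were quantile normalized, and log2 values were averaged first by probe and then by mouse, the replicate. Probes detected (well above background) in 3 or more of 6 mice, with a value in at least 2 mice per genotype, were fitted with limma 3.58.1 in R 4.3.3, genotype as the only term. The precision is limited by the number of mice, 3 per genotype. The methods' *z*-test was not repeated, because its variance term is not stated. Of 56605 probes 32994 were named through RefSeq accessions of GRCm38.p6. Members shown in full were *Lgals3*, whose brightest probe did not overlap between genotypes, the 4 with the largest difference and 17 macrophage, class II, C1q and repair genes, in all 20 because these sets overlap. The members, lists and alternatives were chosen with earlier results of these data known. The function was tested on simulated data. *Lgmn*, with no value in Grsf1cKO 3, was left out of the scores.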

Additional observations from a re-analysis of the deposited data

How the results depend on the processing

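Under the alternatives (75th percentile scaling, normexp, deposited scores, detection filters, first or repeat arrays, slide as a block or slide 2 alone, intensity trend, replicate block, each mouse left out) 0 member probes were called, as by limma with all mice. The median over the members was 0.24 to 0.42 except where a mouse was left out, which gave -0.06 (without Grsf1cKO 3) to 0.52 (without Grsf1cKO 1). Members higher at an unadjusted *p* under 0.05 numbered 0 to 1 with each mouse left out and 1 with the replicate block, in each case *Trem2*. With the mean over the probes of a gene 1 member was lower (*Itgam*). *Grsf1* stayed between -2.22 and -2.16 with each mouse left out, and with the replicate block it was -2.19 with an adjusted *p* of 0.25. The labels give the mice a number and name no pairing. Deviations from the genotype mean correlated over probes by 0.232, 0.097 and 0.104 between same-numbered mice. Each mouse correlated best with the mouse of its own number. With 3 mice per genotype these values cannot show whether same-numbered mice were matched.

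With each mouse left out the sign turned for 12 of the 20 members shown in full, in each without Grsf1cKO 3 and in *Mrc1* also without WT 3 (-0.034): *Adgre1* (-0.21 to 0.41), *Csf1r* (-0.17 to 0.22), *Mrc1* (-0.051 to 0.11), *H2-Ab1* (-0.056 to 0.60), *H2-Eb1* (-0.035 to 0.71), *C1qa* (-0.071 to 0.46), *C1qb* (-0.041 to 0.56), *C1qc* (-0.021 to 0.39), *Lyz1* (-0.21 to 0.51), *Lyz2* (-0.083 to 0.75), *Spp1* (-0.014 to 0.55) and *Itgax* (-0.14 to 1.60). No sign turned in the other 220 values of these 20 members. For *Itgax* the value without Grsf1cKO 3 rests on the mean of the arrays of Grsf1cKO 1, at 6.43 and 5.06. With 3 mice per genotype the standard errors of the members ran from 0.108 (*Itgam*) to 0.874 (*Itgax*).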
